A study of Mus musculus with 4 samples.

Results

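Site-dense windows are stretches of 1 Mb of the mouse autosomes in which an HIV-based vector integrated most often, mapped by HIT-seq, which reads the binding of a chromatin protein from the integration sites it steers. Junctions between vector and genome were counted by chromosome, strand and position in 4 lists, the autosomes were tiled from position 1, and windows with at least 100 junctions over the lists were taken. Of 2481 windows, 170 passed (6.85%), and they held 27274 of 116493 autosomal junctions (23.4%). These counts chose the members, so they describe the set and carry no test. All positions are in mm9.

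HIV integrase is normally held to chromatin by LEDGF/p75, a host protein that binds integrase through one domain and chromatin through another, and in cells that have it integration favours active, gene-rich chromatin. When the integrase-binding domain is joined to another chromatin protein, integration is steered to where that protein sits. TAF3 is a subunit of TFIID, the factor that starts assembly of the transcription machinery at promoters, and its PHD finger reads the trimethyl mark on lysine 4 of histone H3, which is found at active promoters. Promoters are not spread evenly along chromosomes, so a map of sites can be uneven both over kilobases and over megabases.

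The cells were mouse embryonic fibroblasts of strain C57BL/6 that lack Psip1, the gene of LEDGF, on both alleles, in all 4 groups. Plasmids coding for a TAF3 fusion with that domain were brought in by nucleofection. After 24 to 36 h the GFP-positive cells were sorted and given 500 ng of the vector, a pseudotyped one that carries luciferase, and DNA was taken 48 to 72 h later. The fusion held full-length TAF3 (Full) or the PHD domain alone (PHD), each as wild type (WT) or with the substitution M880A. Each group has 1 library, so every value below describes these libraries, and no difference has a replicate check. Fusions were carried by plasmids, and the amount of each fusion protein was not analysed here.

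The autosomal lists held 21654 junctions for Full WT, 37477 for Full M880A, 24277 for PHD WT and 33085 for PHD M880A. Full WT came from a flow cell of its own, so flow cell and construct cannot be told apart wherever Full WT is set against another library. Intervals below are 95% intervals for counting error only. They are too narrow where junctions cluster, because neighbours in a cluster are not independent.

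The members were the upper tail of a continuous range of counts. The median window held 38 junctions and the median member 133, with a range from 100 to 556. Of the members, 104 held fewer than 150 junctions, 32 held at least 200 and 10 held at least 300. At the threshold, 8 members had 100 to 102 junctions and 14 windows outside had 97 to 99. Just inside, the medians were 22.5 Full WT, 26 Full M880A, 28 PHD WT and 24 PHD M880A junctions, and just outside they were 22, 29.5, 22.5 and 23. Each of the 4 libraries was present in every member, with at least 12 junctions.

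Members lay on all 19 autosomes but were unevenly divided among them. On chromosome 11, 26 of 122 windows were members (21.3%) and held 49.4% of its junctions. Chromosome 17 followed with 14 of 96 windows (14.6%) and chromosome 19 with 8 of 62 (12.9%). At the low end, chromosome 18 had 1 member among 91 windows (1.10%), chromosome 14 had 2 among 126 (1.59%) and chromosome 13 had 2 among 121 (1.65%). Chromosome 10 had only 5 members among 130 windows (3.85%), but 3 of the 10 fullest windows of the genome were on it.

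The fullest window was chr10:79000001-80000000, with 157 Full WT, 203 Full M880A, 132 PHD WT and 64 PHD M880A junctions. Its neighbour chr10:80000001-81000000 was next but one in rank, with 159, 176, 145 and 51 in the same order. Between them was chr19:5000001-6000000, with 147, 145, 154 and 99. The PHD M880A count of 99 in the chromosome 19 window was the highest of any member, while its Full M880A count was below those of both chromosome 10 windows. The fourth was chr11:120000001-121000000, with 128, 124, 146 and 63 junctions.

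The other 6 of the 10 fullest held 363 junctions or fewer. The window chr15:76000001-77000000 held 103 Full WT, 105 Full M880A, 115 PHD WT and 40 PHD M880A junctions, and chr10:127000001-128000000 held 82, 111, 122 and 46. In chr15:98000001-99000000 there were 89, 95, 117 and 55. In all 3 the PHD M880A library had the lowest count although its list is longer than both WT lists. On chromosome 17, the window from 35000001 held 93, 102, 94 and 44 junctions and the window from 24000001 held 91, 72, 103 and 47. The tenth, chr3:88000001-89000000, held 76, 84, 103 and 42. Relative to list length, PHD M880A was the lowest library in each of these 10 windows. In the first, the counts come to 72.5 Full WT, 54.2 Full M880A, 54.4 PHD WT and 19.3 PHD M880A junctions per 10000 of each library.

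**Figure D1:**
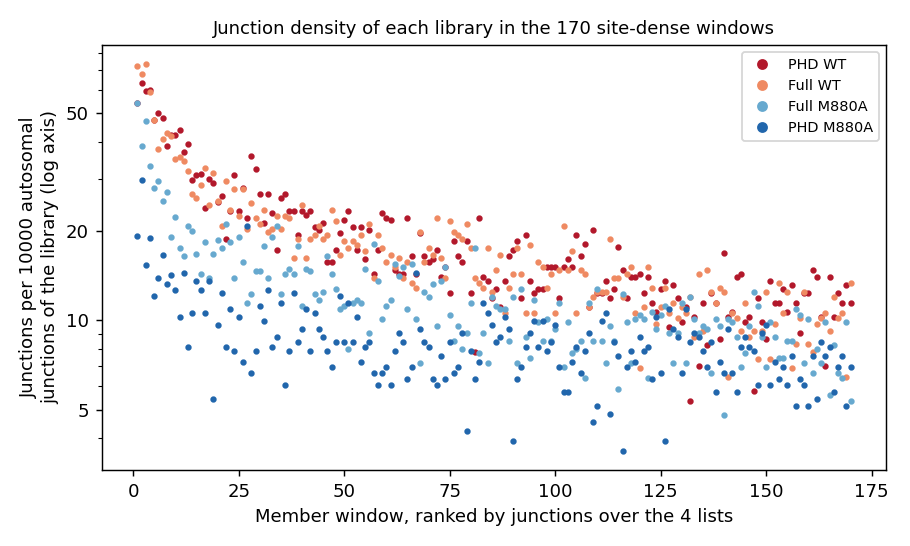
Junctions per 10000 autosomal junctions of each library (log axis) in each of the 170 members, ranked by total over the 4 lists; each point is a window in a library. The WT libraries form the upper band and PHD M880A the lower band at most ranks, and the bands draw together towards the threshold.

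The members took unequal shares of the 4 libraries. They held 7759 PHD WT junctions, 32% of that library (31.4 to 32.5), and 6645 Full WT junctions, 30.7% (30.1 to 31.3). Of the Full M880A library they held 7956 junctions, 21.2% (20.8 to 21.6), and of PHD M880A 4914, 14.9% (14.5 to 15.2). Against the 6.85% of windows that are members, the densities were 4.66, 4.48, 3.10 and 2.17 times the autosomal mean in that order. Per member, counts ran from 13 to 154 in PHD WT (median 37), from 14 to 159 in Full WT (33), from 18 to 203 in Full M880A (41) and from 12 to 99 in PHD M880A (27). Over all windows the medians were 6, 6, 13 and 12. The median member thus held about as many PHD WT as Full M880A junctions, whereas the median window of the genome held more of the M880A libraries. Relative to list length, PHD WT was the highest library in 94 members, Full WT in 64, Full M880A in 10 and PHD M880A in 2. PHD M880A was the lowest in 127 members, Full M880A in 35, and each WT library in 4. Such counts over all windows were not analysed here, so whether this order is particular to members was not tested.

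A library that had no part in choosing the windows was dense in them as well. For each library in turn, 170 windows were chosen on the summed shares of the other 3, and 155 to 164 of them were members. The library left out had 31% (30.4 to 31.6) of its junctions there for PHD WT, 30.2% (29.6 to 30.8) for Full WT, 20.6% (20.2 to 21) for Full M880A and 14.6% (14.3 to 15) for PHD M880A. The densities were 4.53, 4.41, 3.01 and 2.14 times the autosomal mean. All 170 windows exceeded the library's own median window in PHD WT and in Full WT, 169 did so in Full M880A and 168 in PHD M880A.

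**Figure D2:**
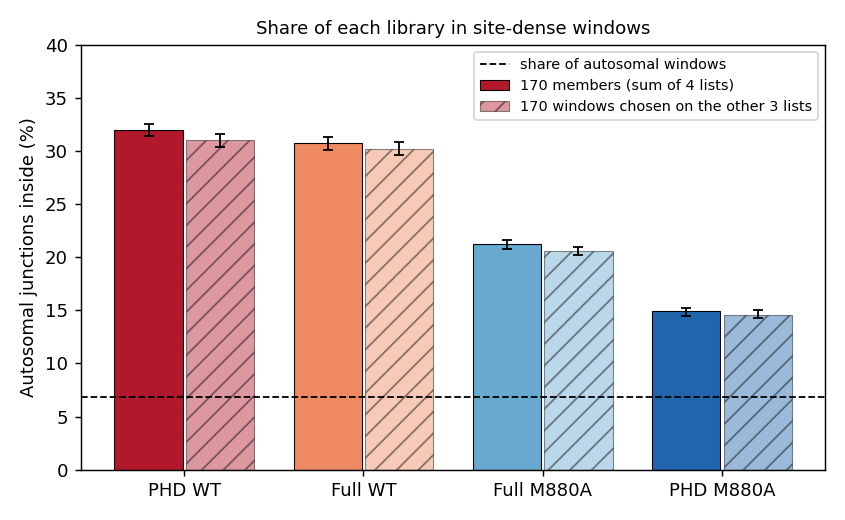
Percent of each library's autosomal junctions in the 170 members (plain bars) and in 170 windows chosen on the other 3 lists (hatched bars), with 95% Wilson intervals; the dashed line is the 6.85% of windows. All 8 bars lie above the line, from 14.6% to 32%, and each hatched bar is at most 1 point below its plain partner.

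Whichever library chose the windows, both WT libraries had larger shares in them than both M880A libraries. Windows chosen on PHD M880A alone, the most even library, shared 110 of 170 with the members. They held 26.7% (26.1 to 27.2) of the PHD WT, 25.6% (25 to 26.2) of the Full WT and 18.3% (17.9 to 18.7) of the Full M880A junctions, and 16.1% of the PHD M880A junctions that chose them. So even in the windows that were fullest for PHD M880A, the WT libraries had the larger shares. Windows chosen on Full WT alone held 31.1% (30.5 to 31.7) of the PHD WT and 14.6% (14.2 to 15) of the PHD M880A junctions.

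Window by window, WT shares exceeded M880A shares for the PHD domain. Over the members together, the ratio of the PHD WT share to the PHD M880A share was 2.15 (2.08 to 2.23), against 0.799 in all other windows. The ratio was above 1 in 163 of 170 members and at least 2 in 87 (51.2%), and it was at most 0.5 in none. Its median, with 0.5 added to each count, was 2.03. Among the 2004 autosomal windows with at least 10 junctions over the pair, 9.08% had a ratio of at least 2 and 29.7% had a ratio of at most 0.5, and the median was 0.818. By exact conditional intervals, 113 members (66.5%) lay above 1 and 0 below, against 8.98% and 13.8% of those windows. Members hold more junctions than other windows, so their intervals are narrower and their ratios less scattered. In 170 windows chosen on the Full libraries, which do not enter this ratio, it was 2.14 (2.06 to 2.22), with 159 windows above 1 and 85 (50%) at 2 or more.

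The ratio for the PHD domain ranged from 0.633 to 5.39 among members. It was highest in chr4:155000001-156000000, with 87 PHD WT and 22 PHD M880A junctions (5.39, 3.34 to 9.04), and in chr7:52000001-53000000, with 71 and 18 (5.38, 3.17 to 9.58). It was lowest in chr5:136000001-137000000, with 13 and 28 (0.633, 0.301 to 1.26), and in chr11:117000001-118000000, with 14 and 26 (0.734, 0.354 to 1.46). Both high windows have intervals clear of 1, and both low ones have intervals that hold 1. These windows were picked as the extremes of all members, and the intervals do not allow for that choice. The intervals therefore give counting error only and are no test of the windows named. The same holds for the highest and lowest windows named for the other pairs below.

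For the full-length pair the WT share was also the larger. The ratio of the Full WT share to the Full M880A share was 1.45 (1.4 to 1.49) over the members and 0.880 elsewhere. It was above 1 in 144 members, at least 2 in 25 (14.7%) and at most 0.5 in none. Of the 2041 windows with at least 10 junctions over the pair, 5.05% had a ratio of at least 2 and 20.1% of at most 0.5. The median ratio, with 0.5 added to each count, was 1.45 in members, and over those windows it was 0.900. Exact intervals lay above 1 in 59 members (34.7%) and below 1 in none, against 4.85% and 4.51%. In windows chosen on the PHD libraries the ratio was 1.47 (1.43 to 1.52), with 26 windows (15.3%) at 2 or more. Whether the WT to M880A ratio differs between the lengths was not tested, since each length has 1 library of each kind. The highest member was chr8:72000001-73000000, with 45 Full WT and 26 Full M880A junctions (3, 1.81 to 5.06). In its fullest 10 kb bin, 72870001 to 72880000, there were 11 Full WT and no Full M880A junctions. Next was chr5:115000001-116000000, with 43 and 27 (2.76, 1.66 to 4.64). The lowest were chr3:107000001-108000000, with 14 and 38 (0.638, 0.319 to 1.20), and chr15:88000001-89000000, with 14 and 37 (0.655, 0.327 to 1.24).

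With the WT sequence, full-length TAF3 and the PHD domain had similar shares of the members. The ratio of Full WT to PHD WT shares was 0.960 (0.929 to 0.992) over the members and 1.02 elsewhere. It was at least 2 in 2 members (1.18%) and at most 0.5 in 2 (1.18%), against 9.06% and 9.96% of the 1446 windows with at least 10 junctions over the pair. Exact intervals lay above 1 in 5 members (2.94%) and below 1 in 10 (5.88%), against 2.49% and 2.63%. In windows chosen on the M880A libraries the interval held 1 (0.976, 0.943 to 1.01), which bounds a difference between the summed shares and does not show equal binding. The high pair were neighbours: chr5:136000001-137000000, with 26 Full WT and 13 PHD WT junctions (2.24, 1.11 to 4.75), and chr5:135000001-136000000, with 31 and 17 (2.04, 1.10 to 3.94). The low pair were chr3:58000001-59000000, with 15 and 35 (0.480, 0.244 to 0.903), and chr15:88000001-89000000, with 14 and 32 (0.490, 0.242 to 0.946).

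Between the M880A libraries, the full-length form had the larger shares in members. The ratio of Full M880A to PHD M880A was 1.43 (1.38 to 1.48) inside and 0.925 elsewhere, and both libraries came from 1 flow cell. It was at least 2 in 27 members (15.9%) and at most 0.5 in none, against 5.44% and 8.24% of 2281 windows. Exact intervals lay above 1 in 53 members (31.2%) and below 1 in 1 (0.588%), against 3.99% and 3.64%. Windows chosen on the WT libraries gave 1.41 (1.36 to 1.47). The highest were chr15:96000001-97000000, with 46 and 12 junctions (3.38, 1.76 to 7.02), and chr7:52000001-53000000, with 63 and 18 (3.09, 1.81 to 5.55), which was also among the 2 highest for the PHD pair. The member with its interval below 1 was chr11:86000001-87000000, with 43 Full M880A and 69 PHD M880A junctions (0.550, 0.367 to 0.817). There PHD WT had 54 and Full WT 44. Next lowest was chr11:4000001-5000000, with 27 and 36 (0.662, 0.387 to 1.12).

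Across the 170 members, counts of the WT libraries ran together most closely, with a Spearman coefficient of 0.787. The coefficient was 0.616 for Full WT with Full M880A and 0.549 for PHD WT with Full M880A. For PHD M880A it was 0.365 with Full WT, 0.352 with PHD WT and 0.295 with Full M880A. Over all 2481 windows the 6 coefficients lay between 0.688 and 0.810. The members are a truncated range, every window shares its mappable length and base composition among libraries, and PHD M880A has the smallest counts here. The part of each in these coefficients was not tested.

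Inside the members, junctions were crowded within 1 kb of one another. The measure is the percent of junctions with another junction of the same library within 1 kb, with every library thinned to 22486 sites by an exact formula. It was 80.5% for PHD WT in members and 59% in other windows, and 61.6% and 30% for Full WT. For Full M880A it was 37.8% and 10.3%, and for PHD M880A 12.4% and 5.17%. The increase was 21.5 points for PHD WT, 31.6 for Full WT, 27.6 for Full M880A and 7.18 for PHD M880A.

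A fuller window has more close neighbours by density alone, so these values were set beside even placement of each library inside each window. Even placement gave 9.75% in members and 2.17% elsewhere for PHD WT, and 9.69% and 1.94% for Full WT. It gave 6.44% and 1.78% for Full M880A, and 4.01% and 1.84% for PHD M880A. Relative to it, PHD WT crowding was 8.26-fold in members and 27.2-fold in other windows, and Full WT crowding 6.35-fold and 15.4-fold. The M880A libraries had about the same fold in both places, 5.88 and 5.79 for Full M880A and 3.08 and 2.81 for PHD M880A. The percent cannot exceed 100, which limits the fold in members for both WT libraries. With even placement at 9.75% and 9.69% there, neither fold could have reached its value in other windows. A lower WT fold in members is thus set by the measure.

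**Figure D3:**
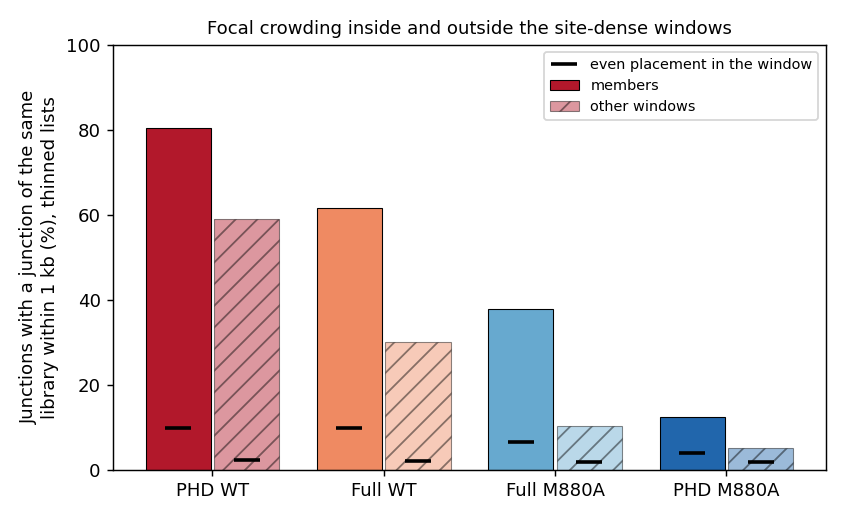
Percent of junctions with a junction of the same library within 1 kb, in members (plain bars) and other windows (hatched bars), for lists thinned to 22486 sites; black dashes give even placement inside each window. Every bar stands above its dash, from 5.17% to 80.5%, and members stand above other windows in each library.

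The share of neighbours within 5 kb that lie within 1 kb does not rise with density alone; even placement gives 20%. It was 60.7% for PHD WT in members and 67% elsewhere, a difference of -6.27 points. Full WT had 52.9% and 55.6%, Full M880A 38.1% and 41%, and PHD M880A 32.7% and 33.3%. In all 4 libraries the fine share was slightly lower in members, and the order of the libraries was the same in both places.

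Small foci, here at least 5 junctions of a library with gaps of at most 1 kb, were frequent in members. In the unthinned PHD WT list, 505 of 1181 foci (42.8%) lay in members, 2.97 per member against 0.293 per other window (10.2-fold). For Full WT it was 271 of 436 (62.2%), 22.3-fold by the same measure, and for Full M880A 204 of 334 (61.1%), 21.3-fold. PHD M880A had 17 of its 28 foci in members (60.7%), 21-fold. Foci need several junctions close together, so their number rises faster than density. PHD WT foci held a median of 7 junctions in members and 6 elsewhere, with median widths of 1306 and 1304 bp. Median widths were 1588 and 1397 bp for Full WT and 1650 and 1537 bp for Full M880A. The few PHD M880A foci went the other way, with 6 junctions and 1882 bp in members and 7 junctions and 2214 bp elsewhere. Foci held 55.8% of the PHD WT, 31.5% of the Full WT, 21.1% of the Full M880A and 2.69% of the PHD M880A junctions in members. The members had from 0 to 12 PHD WT foci, with a median of 2, and 7 had none.

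Among members, chr19:5000001-6000000, chr10:80000001-81000000 and chr15:98000001-99000000 each had 12 PHD WT foci. They had 6, 9 and 7 Full WT foci and 8, 10 and 5 Full M880A foci. Of PHD M880A foci they had 3, 0 and 1. The foci with the most junctions of a library were chosen after their values were seen, so the high count of that library is built in. The largest of Full WT, chr17:36003673-36007316, held 22 Full WT, 10 Full M880A, 16 PHD WT and no PHD M880A junctions. The largest of Full M880A, chr17:34253713-34258896, held 17, 28, 16 and 4 in that order. Next for Full M880A were chr4:135697435-135703619, with 8, 25, 15 and 2, and chr19:46574767-46580457, with 12, 24, 11 and 0. The largest of PHD WT, chr5:143575291-143578643, held 11, 19, 31 and 5.

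The PHD M880A foci in members also held junctions of other libraries, as a rule. The largest, chr19:5799398-5802304, held 23 PHD M880A, 14 PHD WT, 15 Full WT and 15 Full M880A junctions, and lay in the window with the highest PHD M880A count. A further focus just before it, chr19:5796217-5798098, held 9 PHD M880A, 2 PHD WT, 2 Full WT and 1 Full M880A. The focus chr11:86396843-86400686 held 15, 15, 7 and 6, and chr4:88578910-88583168 held 11, 9, 3 and 6. A pair of foci had no PHD WT junction: chr4:40671966-40675588, with 6 PHD M880A and 1 Full WT junction, and chr11:120205666-120206788, with 6 PHD M880A and 1 of each Full library. Members were chosen on the sum of all lists and hold every library, so these counts are a description. Whether PHD M880A foci in other windows also held junctions of other libraries was not analysed here.

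The junctions of a member were spread over many places. Each window has 100 bins of 10 kb, and the fullest held from 6.40% to 47.3% of a member's junctions (median 15.6%). A member had junctions in 26 to 80 bins (median 46). Windows with 50 to 99 junctions had medians of 18% and 33 bins; both measures depend on the number of junctions. Without the fullest bin, 110 of the 170 members still held at least 100 junctions, and the rest would have missed the threshold. The largest concentration was in chr6:134000001-135000000. Its bin 134870001 to 134880000 held 53 of 112 junctions (47.3%): 23 of 25 PHD WT, 11 of 19 Full WT, 15 of 38 Full M880A and 4 of 30 PHD M880A. In chr3:58000001-59000000 the bin from 58220001 held 50 of 118 (42.4%), with 26 PHD WT, 13 PHD M880A, 7 Full M880A and 4 Full WT. In chr8:114000001-115000000 the bin from 114250001 held 49 of 124 (39.5%), with 21 Full M880A, 12 PHD WT, 8 Full WT and 8 PHD M880A. The leading library thus differed among these bins.

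The 3 members with the smallest share in their fullest bin were all among the 5 with the most junctions, although the other two of those 5, on chromosomes 19 and 11, had 12.3% and 15.2% there. In chr10:80000001-81000000 the fullest bin held 34 of 531 junctions (6.40%) and 80 bins were hit. That bin had 19 PHD WT, 14 Full WT, 1 PHD M880A and no Full M880A junctions, although the window held 176 of Full M880A. In chr15:76000001-77000000 the fullest bin held 7.16% and in chr10:79000001-80000000 8.09%.

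Libraries used the same bins to different degrees. When the fullest bin of each member was picked on 3 libraries, the library left out had 19.9% (19 to 20.8) of its member junctions in these bins for PHD WT, 16.2% (15.4 to 17.1) for Full WT, 13% (12.3 to 13.7) for Full M880A and 6.17% (5.53 to 6.87) for PHD M880A. Even filling would give 1%. The bin held at least 1 junction of the library left out in 168 members for PHD WT, 168 for Full WT, 159 for Full M880A and 119 for PHD M880A.

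At equal numbers of junctions the libraries still differed in spread. If 12 junctions, the lowest count of any library in any member, are drawn from each library in each member, they fall on average into a number of bins that can be computed exactly. Its median over members was 7.18 bins for PHD WT (1.74 to 9.59), 8.60 for Full WT (3.69 to 11.7), 9.63 for Full M880A (5.73 to 11.5) and 10.9 for PHD M880A (7.46 to 12). Even filling gives 11.4. PHD WT had fewer bins than PHD M880A in 169 of 170 members, with a median difference of -3.69 bins. The exception was chr19:5000001-6000000, with 9.28 for PHD WT and 8.92 for PHD M880A. Full WT had fewer bins than Full M880A in 140 members (median difference -1.04), and Full M880A fewer than PHD M880A in 157 (-1.20). Full WT had more bins than PHD WT in 153 (1.24). Each of these counts is over windows of the same libraries, not over replicates. Counts of this kind for other windows were not analysed here, so they do not mark members off from them.

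**Figure D4:**
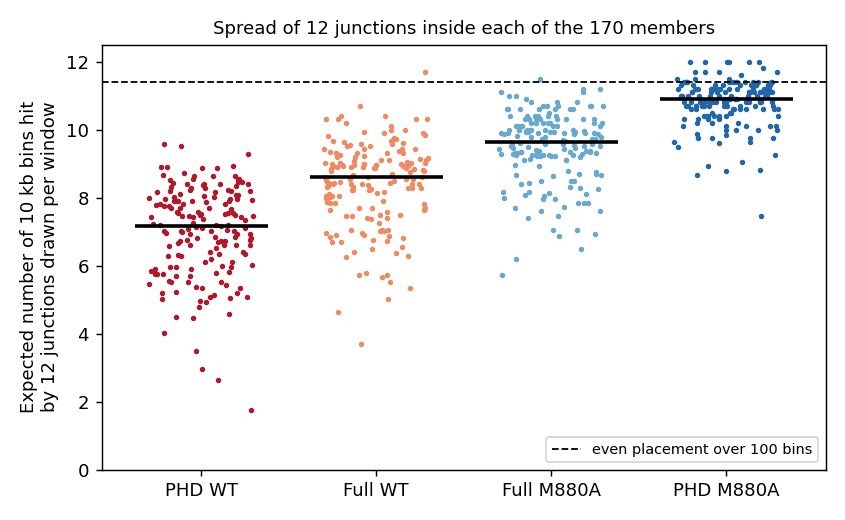
Expected number of 10 kb bins hit by 12 junctions drawn from a library in each of the 170 members; each point is a member, the bar the median, and the dashed line the 11.4 bins of even filling. Medians step from 7.18 bins in PHD WT to 10.9 in PHD M880A, which lies next to the line.

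Dense windows adjoined one another. Of the members, 100 (58.8%) touched another member and 70 stood alone, and the members formed 34 runs of at least 2 windows and 15 of at least 3. Adjoining members held a median of 152 junctions and lone ones 124. The longest run, chr17:23000001-30000000, had 7 windows with 365 Full WT, 320 Full M880A, 377 PHD WT and 210 PHD M880A junctions. Its windows ranged from 100 to 313 junctions. A run of 6 lay on chromosome 11, from 115000001 to 121000000, with 284, 332, 288 and 189 junctions in the same order. Of 3 runs of 5 windows the fullest was chr19:4000001-9000000, with 316, 359, 368 and 216.

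Windows near members were denser than the rest of the genome. Distance was taken to any member, so a window can be counted at several distances and the groups overlap. A window at 7 or 10 Mb from a member can lie 1 Mb from another. The values below are therefore not those of windows remote from every member. Windows at 1 Mb from a member were members themselves in 33.8% of cases (100 of 296), at 2 Mb in 23%, at 3 Mb in 20.4% and at 5 Mb in 11%. At 10 Mb the percent was 13%, still above the 6.85% of all windows; members are concentrated on some chromosomes, as given above. Non-members 1 Mb away held a median of 54 junctions, although by the rule none can reach 100, against 47 at 2 Mb, 40 at 3 Mb and 35 over all non-members. By library, the mean at 1 Mb was 1.61 times that of all non-members in PHD WT and in Full WT, 1.37 times in Full M880A and 1.27 times in PHD M880A. At 3 Mb these were 1.10, 1.12, 1.16 and 1.07. Farther out the means did not fall steadily: at 7 Mb they were 1.24, 1.19, 1.14 and 1.11, and at 10 Mb 1.09, 1.09, 1.09 and 1.02.

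**Figure D5:**
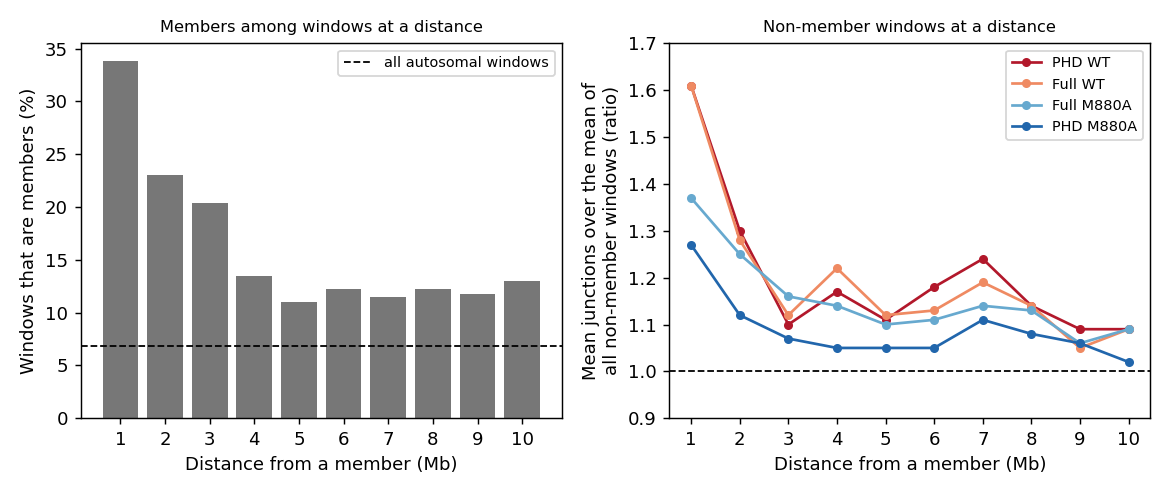
Left, percent of windows at 1 to 10 Mb from a member that are members (bars, with a dashed line at 6.85%). A window can be counted at several distances. Right, mean junctions of non-member windows at these distances over the mean of all non-members, for each library; the WT libraries start at 1.61, and from 3 to 10 Mb the libraries vary between 1.02 and 1.24.

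A few members stood out from sparse surroundings. In 5 of them both flanking windows held fewer than the median of 38 junctions. The fullest was chr7:52000001-53000000, with 220 junctions between flanks of 36 and 30. It also had the second highest ratio of PHD WT to PHD M880A. The others were chr7:148000001-149000000 with 126 junctions, chr19:53000001-54000000 with 108, chr8:11000001-12000000 with 105 and chr17:71000001-72000000 with 103.

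Of the readouts that the rule did not use, strand differed little between members and other windows, and reads per site were higher in members. The plus strand held 50.1% to 50.8% of the member junctions of each library and 49.7% to 50.4% of the others. The median number of reads per site was 47 in members and 39 elsewhere for Full WT, 32 and 28 for PHD WT, 26 and 23 for Full M880A, and 24 and 23 for PHD M880A. It was thus higher in members in every library, with the largest gap in Full WT and the smallest in PHD M880A. Sites with at least 10 reads made up 77.6% in members and 74.4% elsewhere in Full WT, and the gap was smaller in the other libraries.

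Identical positions on the same strand in several libraries were rare. In members, 201 of 27066 distinct positions (0.743%, 0.647 to 0.852) were in at least 2 lists, 7 in at least 3 and none in all 4. Elsewhere it was 231 of 88979 (0.260%, 0.228 to 0.295). Full WT and PHD WT, which lay on different flow cells, shared 84 positions in members. These were 1.26% of the Full WT junctions in members and 1.08% of the PHD WT junctions in members. Full WT shared 35 with Full M880A and 18 with PHD M880A, also across flow cells. Among the 3 libraries of 1 flow cell, Full M880A and PHD WT shared 50, PHD WT and PHD M880A 19, and Full M880A and PHD M880A 9. Denser windows give more matches by coincidence, and that part was not tested.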

How the data were processed

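Integration sites were mapped in 4 libraries of genomic DNA, 1 per group, grouped by the sample characteristics. DNA was sheared (average 500 bp), nested PCR amplified the junctions, and libraries were sequenced as read pairs of 108 nt, per the labels' protocols. The authors deposited 1 BED list of paired-end integration sites per library, per the file headers. Build mm9 and MACS 1.4.2 come from the submitters' processing notes, with no role given. No aligner or filter is named in the sources used here. A score column that the authors deposited, always 0, was left aside. The whole number after each read name, at least 2, was taken as reads, from its values only. PCR reads carry no molecular identifiers, so distinct positions were counted. The read names show that Full WT had its own flow cell.

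The junction was the 5′ end of the listed strand, 1-based, and equal chromosome, strand and position were collapsed, leaving 22486 (Full WT), 39292 (Full M880A), 25363 (PHD WT) and 34888 (PHD M880A) positions. Windows of 1 Mb ran to the last junction of each autosome. Members and measures were chosen with earlier results of these data known. Windows named are the 10 fullest, the 2 highest and 2 lowest ratios per pair (0.5 added to each count for ranking), the 3 longest runs and the 3 largest and 3 smallest shares in the fullest bin. Foci, the draw of 12 junctions, windows chosen on 1 or 2 libraries and members with sparse flanks were added after values were seen. Ratios of shares, of autosomal junctions, have exact conditional binomial intervals, and shares have Wilson intervals. Thinning to 22486 sites used the hypergeometric formula. The code was tested on simulated data. Calculations used Python 3.11.15, numpy 2.4.6, pandas 2.3.3 and scipy 1.17.1. Genes, promoters and sequences were not analysed here, since the gene tables used another build and positions were not converted.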

Additional observations from a re-analysis of the deposited data

Results flagged for a closer look

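The tiling covers autosomes only, and 2 windows of chromosome X reached 100 junctions as well. The window from 71000001 to 72000000 held 159 junctions, with 39 Full WT, 50 Full M880A, 55 PHD WT and 15 PHD M880A. The window from 7000001 to 8000000 held 107, with 25, 33, 33 and 16 in the same order. They are listed because they lie in data that the comparisons do not use. Chromosome X held 5536 junctions in 167 windows, with a median of 31 per window.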

How the results depend on the processing

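The order of the libraries (PHD WT, Full WT, Full M880A, PHD M880A) was the same in all 14 settings for the share inside and in all 16 for the share with a neighbour. Values below follow that order, first shares inside, then shares with a neighbour within 1 kb where they moved. From 80 junctions, 307 windows were members (187 adjoining), with 44.2%, 42%, 30.9% and 23.9%, and 78%, 57.8%, 32.8% and 11%. From 150, 66 were members (33 adjoining), with 18.3%, 17.3%, 11.5% and 6.91%, and 83.5%, 66.9%, 45.2% and 14%. Windows shifted by 0.5 Mb gave 33.3%, 31.8%, 22% and 15.7%. Merging within 10 bp gave 30.9%, 29.8%, 20.6% and 14.4%, with 36.8% and 11% crowded in the M880A libraries. Sites of at least 10 reads gave 33.4%, 32.5%, 22.3% and 15.7%, and 77.8%, 55.8%, 32.2% and 9.03%. Equal weights gave 33.1%, 31.9%, 22% and 15.7%. The other end of each interval moved only PHD M880A crowding, to 13.8%. With the fullest 10 kb bin left out of the count that chose windows, an alternative chosen after seeing the data, 110 members remained (58 adjoining). Shares and neighbours in these windows were counted with that bin kept in. Their values were 24.6%, 23.9%, 15.9% and 10.5%, and 81.4%, 63.6% and 40.3% in the first 3 libraries. Leaving each list out of the sum, with the threshold scaled, gave 149 to 203 members, 82 to 118 adjoining, shares of 28.9% to 35.2%, 28.5% to 33.9%, 19.6% to 23.8% and 13.5% to 16.8%, and crowding of 80% to 80.9%, 60.3% to 62.7%, 36.5% to 39.2% and 11.6% to 13%. Neighbours within 5 kb gave 87%, 75.2%, 57.4% and 29.3%, and within 200 bp 55.8%, 35.6%, 16.8% and 4.98%. Bins of 100 kb gave a median of 28.5% in the fullest bin. Intervals that exclude 1, in place of a ratio of 2, called 59 members in place of 25 for the Full pair, 5 and 10 in place of 2 and 2 for the WT pair, and 53 and 1 in place of 27 and 0 for the M880A pair. Asking for 20 junctions over the pair changed no count of members, and counting identical positions once gave no value outside its interval.

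With 1 library per group no spread between samples could be set against any difference. Mappable length per window was not computed, and 81 windows held no junction. Sites with fewer than 2 reads are not in the lists. No paired analysis was possible because each group has 1 library and no result comes from a test across samples.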
